A study of Mus musculus with 2 samples.

Results

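Cells of MC38 tumors that carried the RNA of both C1q, a mark of macrophages, and Ccr2, a mark of blood monocytes, are described here, and are called Ccr2 C1q cells. They were 532 of 25402 cells kept. The Lmo7+/+ library gave 276 of 13542, and the library labelled Lmo7-/- gave 256 of 11860. A droplet was kept as a cell where it held 500 genes or more, 1000 UMIs or more (a UMI is a tag that marks 1 captured RNA molecule) and no more than 15% mitochondrial UMIs. Of these it took cells with at least 5 UMIs of C1qa, C1qb and C1qc together and at least 2 of Ccr2. It left out cells with any UMI of Cd3e, Cd3g or Trac (T cells), more than 1 of Krt8, Krt18 and Rhox5 (tumor cells), more than 2 of Mki67, Top2a, Cdk1, Birc5 and Ccna2 (dividing cells), more than 3 of Ccl8, Igf1 and Vcam1, more than 2 of Mmp12 and Gpnmb, more than 3 of Fcrl5, Xcr1, Spn and Cd300e, or 8 or more of Ifit1, Ifit2, Ifit3, Rsad2 and Cmpk2. The levels of these genes therefore chose the cells and are no finding.

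MC38 is a mouse colon cancer cell line, and the tumors grew under the skin of C57BL/6 hosts that were either wild type (Lmo7+/+) or carried a germline knockout of Lmo7 (Lmo7-/-). The implanted tumor cells were the same in both and kept the gene. The study's methods give female hosts of 6 to 8 weeks, and name no number of mice behind a library. Live cells were sorted without a marker of cell type, each genotype gave 1 library on the 10x Genomics platform, and both libraries were pooled for sequencing. With 1 library per genotype no test between genotypes was possible, so every value describes these 2 libraries, and all intervals are 95% intervals for counting error only. Lmo7 itself (chromosome 14, 101729957 to 101934710 on mm10, plus strand) had 1 count in the Ccr2 C1q cells of each library, so its loss was not detectable in these cells and the genotype rests on the label.

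Classical monocytes leave the blood through Ccr2, the receptor of the chemokines Ccl2, Ccl7 and Ccl12, and enter tumors with high Ly6c2. In tissue they lose Ly6c2 and Ccr2 and take up the genes of macrophages, among them those of complement C1q, the F4/80 antigen (Adgre1) and the receptor of fractalkine (Cx3cr1), and in many tissues MHC class II. Gpr183 is a receptor for oxysterols that guides the migration of immune cells.

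A pair of neighbouring populations was taken by gates from the same libraries. The first were C1q cells without Ccr2, which passed every gate of the rule except that Ccr2 was at 0 (1339 and 1550 cells, Lmo7+/+ first here and in all pairs of values below). The second were Ly6c2 Chil3 monocytes, named by their gate of at least 5 UMIs of Ly6c2 and Chil3 together and at most 2 of C1q, with no gate on Ccr2 (153 and 108 cells). A cell with exactly 2 Ccr2 UMIs was just inside the rule (114 and 110 cells) and a cell with 1 was just outside it (220 and 214 cells). Ccr2 C1q cells held a median of 3 Ccr2 UMIs in each library (range 2 to 13 and 2 to 10) and a median of 33 and 33.5 C1q UMIs (5 to 178 and 5 to 168).

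The depth and the purity of the gates were checked first. The median cell had 4579.5 and 4364 UMIs among Ccr2 C1q cells, 3110 and 2748 among C1q cells without Ccr2, and 2780 and 2143.5 among monocytes, so the cells chosen were deeper than both neighbours. Tumor cells, which should lack both genes, passed the C1q gate in 4.19% and 4.44% and both gates in 0.0511% and 0.139% of cells. Their median depths were 17138 and 16669 UMIs. T cells passed the C1q gate in 15.7% and 13.9% and both gates in 3.98% and 2.67% of cells (median depths 2696 and 2668 UMIs). The source of the C1q RNA in tumor cells and T cells was not tested. Scrublet marked 0.362% and 0.781% of the Ccr2 C1q cells as doublets, against 5.00% and 3.55% of C1q cells without Ccr2. A droplet that held 1 monocyte and 1 macrophage would pass both gates, and the part of such droplets in the results was not tested. The libraries shared 279 barcodes, which marked 3 Ccr2 C1q cells in each library and none in both.

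The label was then checked against markers. Macrophage genes were present at levels of 803 and 781 CPM (counts of the gene per 1e6 counts of the population) for Csf1r, 729 and 719 CPM for Cd68 and 265 and 283 CPM for Fcgr1, and monocyte genes at 642 and 445 CPM for Plac8 and 571 and 348 CPM for Ly6c2. Csf1r was close to level in both neighbours and does not tell them apart. All 22 macrophage genes summed to 7962 and 8044 CPM, against 11916 and 12631 CPM without Ccr2 and 3940 and 4104 CPM in monocytes. All 16 monocyte genes summed to 3183 and 3127 CPM, against 1334 and 1364 CPM without Ccr2 and 12709 and 14843 CPM in monocytes. The monocyte list includes Ly6c2 and Chil3, which gated the monocytes. The 16 dendritic cell genes on the list summed to 856 and 1008 CPM, against 841 and 752 CPM in C1q cells without Ccr2 and 516 and 255 CPM in monocytes. Mgl2, which macrophages also express, made up 704 and 858 CPM of that sum, while the lineage genes Flt3 (0 and 0.826 CPM) and Zbtb46 (0.717 and 0.826 CPM) were near 0. The rest of the sum lay in other genes of the list. Of 8 tested against C1q cells without Ccr2, 1 was at least 2-fold higher in both libraries and 2 lower, each interval without 0. Over all genes tested these shares were 0.463% and 2.04%. The 8 neutrophil genes summed to 50.2 and 49.6 CPM, with S100a8 and S100a9 at 0 counts in both libraries. Gpr183 is named with C1qa and Ccr2 as a marker of these cells but was in no gate. On mm10, Ccr2 lies on chromosome 9 (124101950 to 124113557, plus strand), Gpr183 on chromosome 14 (121952551 to 121965195, minus strand) and C1qb, C1qc and C1qa next to each other on chromosome 4 (136880129 to 136898803, minus strand), and counts were taken over whole genes. It stood at 158 and 102 CPM, against 143 and 136 CPM in monocytes and 96.0 and 45.7 CPM in C1q cells without Ccr2. The log2 ratio over C1q cells without Ccr2 was 0.72 and 1.15 and passed 2-fold only in the library labelled Lmo7-/-, and the log2 ratio over monocytes was 0.14 and -0.42. Gpr183 thus stood within 2-fold of monocytes in both libraries. The libraries hold 1 time point, so a passage from monocyte to macrophage was not measured.

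Ccr2 C1q cells numbered 276 among 1835 Lmo7+/+ cells that passed every gate but that on Ccr2, which is 15.04% (Clopper-Pearson 95% interval 13.4 to 16.8), and 256 among 2020 such cells of the library labelled Lmo7-/-, which is 12.7% (11.3 to 14.2). The difference was -2.37 percentage points (Newcombe interval -4.56 to -0.186). With every cell thinned to 3000 UMIs before gating it was -0.523 points (-2.52 to 1.48), and within 4 ranges of depth it lay between -3.32 and -0.0635 points, with 0 inside each interval. As a share of all cells kept, Ccr2 C1q cells were 2.04% and 2.16% (difference 0.120 points, -0.232 to 0.477), while the wider C1q population was 13.6% and 17.0%. In the thinned setting the gates acted on the thinned counts, so cells that the rule leaves out at full depth could pass. They gave 167 and 149 Ccr2 C1q cells and 1341 and 1274 without Ccr2. The differences among C1q cells were all negative, and each range of depth held fewer cells. A lower share at equal depth was therefore neither established nor excluded.

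Against C1q cells without Ccr2, the Ccr2 C1q cells carried more RNA of classical monocytes and less of mature macrophages in both libraries. The gate on Ccr2 made this contrast and all these cells passed the same C1q gate, so the values are a description with no test. A gene was called when it was at least 2-fold apart in the same direction in both libraries with both intervals without 0. This held for 45 of 9718 genes higher (0.463%) and 198 lower (2.04%). Of 14 monocyte genes tested, 6 were called higher and none lower, with a median log2 ratio of 0.93 and 1.30, against -0.08 and -0.03 over all genes tested.

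Plac8, a small cysteine-rich protein of monocytes, stood at 642 and 445 CPM in Ccr2 C1q cells and at 102 and 72.4 CPM without Ccr2 (log2 ratio 2.65 and 2.62). Ly6c2, the surface antigen that defines classical monocytes, stood at 571 and 348 against 84.5 and 52.4 CPM (2.76 and 2.73), and Chil3, a chitinase-like lectin, at 63.8 and 42.1 against 5.46 and 1.83 CPM (3.55 and 4.53). F10, which encodes coagulation factor X, stood at 43.7 and 62.0 against 9.46 and 13.8 CPM (2.21 and 2.16). All 4 genes were called higher, Chil3 with the widest gap between the libraries. Ly6i and the lectin receptor Clec4e were the other monocyte genes called, with log2 ratios of 2.26 and 1.77 for Ly6i and 1.23 and 1.28 for Clec4e. Outside the list, the leukotriene B4 receptor Ltb4r1 (22.9 and 32.2 against 4.41 and 5.49 CPM), Mcemp1 (24.4 and 33.9 against 7.15 and 7.93 CPM) and the calcium-binding protein S100a4 (266 and 225 against 123 and 102 CPM) were also called higher. Monocyte genes with values that were not called included Ms4a4c (log2 ratio 0.46 and 0.51), Msrb1 (0.51 and 0.64) and Thbs1 (0.86 and 0.72).

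Of 21 macrophage genes tested, none were called higher and 3 lower (median log2 ratio -0.62 and -0.60). Over all genes tested 0.463% were called higher and 2.04% lower. Ms4a7, a membrane protein of mature macrophages, stood at 164 and 113 CPM against 419 and 494 CPM without Ccr2 (log2 ratio -1.36 and -2.12). The lysosomal tetraspanin Cd63 stood at 255 and 286 against 673 and 708 CPM (-1.40 and -1.31), and the acid phosphatase Acp5 at 148 and 97.5 against 309 and 323 CPM (-1.06 and -1.73). The others were lower by less than 2-fold or close to level. Adgre1 stood at 207 and 217 against 364 and 419 CPM (-0.81 and -0.95), Cx3cr1 at 327 and 248 against 543 and 401 CPM (-0.73 and -0.69) and the lipoprotein Apoe at 1793 and 2081 against 3268 and 3706 CPM (-0.87 and -0.83). Csf1r, the receptor that macrophages need to survive, differed by a log2 ratio of 0.07 and 0.08.

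The 10 genes farthest lower had 0 to 8 counts per library in Ccr2 C1q cells. C6 (0.717 and 0.826 against 10.7 and 18.1 CPM) and Cxcl14 (5.74 and 4.96 against 35.5 and 59.4 CPM) were near 0 in tumor cells, while Cav1 (4.30 and 3.31 against 27.5 and 29.7 CPM) and Mxra8 (1.43 and 1.65 against 12.2 and 9.55 CPM) stood at 323 and 283 CPM and at 117 and 83.8 CPM there. The other 6, Igfbp7, Serping1, Ggact, Crim1, Gdpd1 and Otud1, stood at 0 to 3.59 CPM against 10.1 to 23.2 CPM. Of 5 stromal genes tested 3 were called lower, Col1a1, Col3a1 and Dcn, against 2.04% of all genes tested. The 8 stromal genes on the list summed to 86.1 and 79.3 CPM in Ccr2 C1q cells, 245 and 286 CPM without Ccr2 and 1101 and 1182 CPM in tumor cells. The share of droplets marked as doublets moved the same way, as given above, and the part of both in the 198 genes was not tested. With Scrublet doublets left out 142 genes were called lower, and with every cell thinned to 3000 UMIs 86.

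Against Ly6c2 Chil3 monocytes the Ccr2 C1q cells were apart in the opposite way. The gates on C1q, Ly6c2 and Chil3 made this contrast too, and none of their genes is counted. Of 6632 genes tested, 100 were called higher (1.51%) and 117 lower (1.76%). On the macrophage list 12 of 21 genes were called higher and none lower (median log2 ratio 1.30 and 1.28), and on the monocyte list 11 of 14 were called lower and none higher (-2.25 and -2.10), against 0.03 and 0.02 over all genes tested.

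Mgl2, a galactose lectin of macrophages and some dendritic cells, stood at 704 and 858 CPM in Ccr2 C1q cells and at 28.7 and 59.8 CPM in monocytes (log2 ratio 4.62 and 3.84), but at 656 and 578 CPM in C1q cells without Ccr2. The collagenase Mmp13 stood at 294 and 438 against 6.62 and 15.95 CPM in monocytes, and the mannose receptor Mrc1 at 83.2 and 101 against 6.62 and 3.99 CPM. Cadm1, Itga9 and Zmynd15 were likewise at 98.3 to 181 CPM against 3.99 to 19.9 CPM. The lectin-like receptor Klrb1b (148 and 258 against 22.1 and 47.9 CPM) and Lilra5 (40.2 and 56.2 against 4.41 and 3.99 CPM) were called higher too. Of these genes Cadm1 (385 and 534 CPM) and Zmynd15 (346 and 359 CPM) were higher still in C1q cells without Ccr2. Of the macrophage genes, Apoe stood at 1793 and 2081 against 419 and 479 CPM, Adgre1 at 207 and 217 against 59.6 and 91.7 CPM (1.80 and 1.24) and Cx3cr1 at 327 and 248 against 90.4 and 23.9 CPM (1.85 and 3.37). The Ccr2 ligands Ccl7 (84.6 and 135 against 8.82 and 43.9 CPM) and Ccl12 (236 and 330 against 50.7 and 51.8 CPM) were also called higher. Ccl2 stood at 92.5 and 94.2 against 44.1 and 55.8 CPM and was not called.

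Some monocyte genes were near 0 in the Ccr2 C1q cells and others stood well above it. The proteoglycan Vcan stood at 7.89 and 6.61 CPM against 119 and 152 CPM in monocytes, and haptoglobin (Hp) at 9.32 and 7.44 against 135 and 108 CPM. Plac8 stood at 642 and 445 against 3166 and 3657 CPM (log2 ratio -2.30 and -3.04), and Fn1 at 153 and 237 against 302 and 439 CPM (-0.98 and -0.89, not called). The 5 genes farthest lower, Ighg2c, Igkc, Slpi, Jchain and Siglech, included immunoglobulin genes and a marker of plasmacytoid dendritic cells. Siglech, Jchain or Flt3 RNA, or more than 2 Igkc UMIs, was found in 23 of 153 (15.03%) and 10 of 108 (9.26%) cells of the monocyte gate, so that gate was not pure. Without those cells 103 genes were called higher and 123 lower, an alternative chosen after seeing the data.

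**Figure D1:**
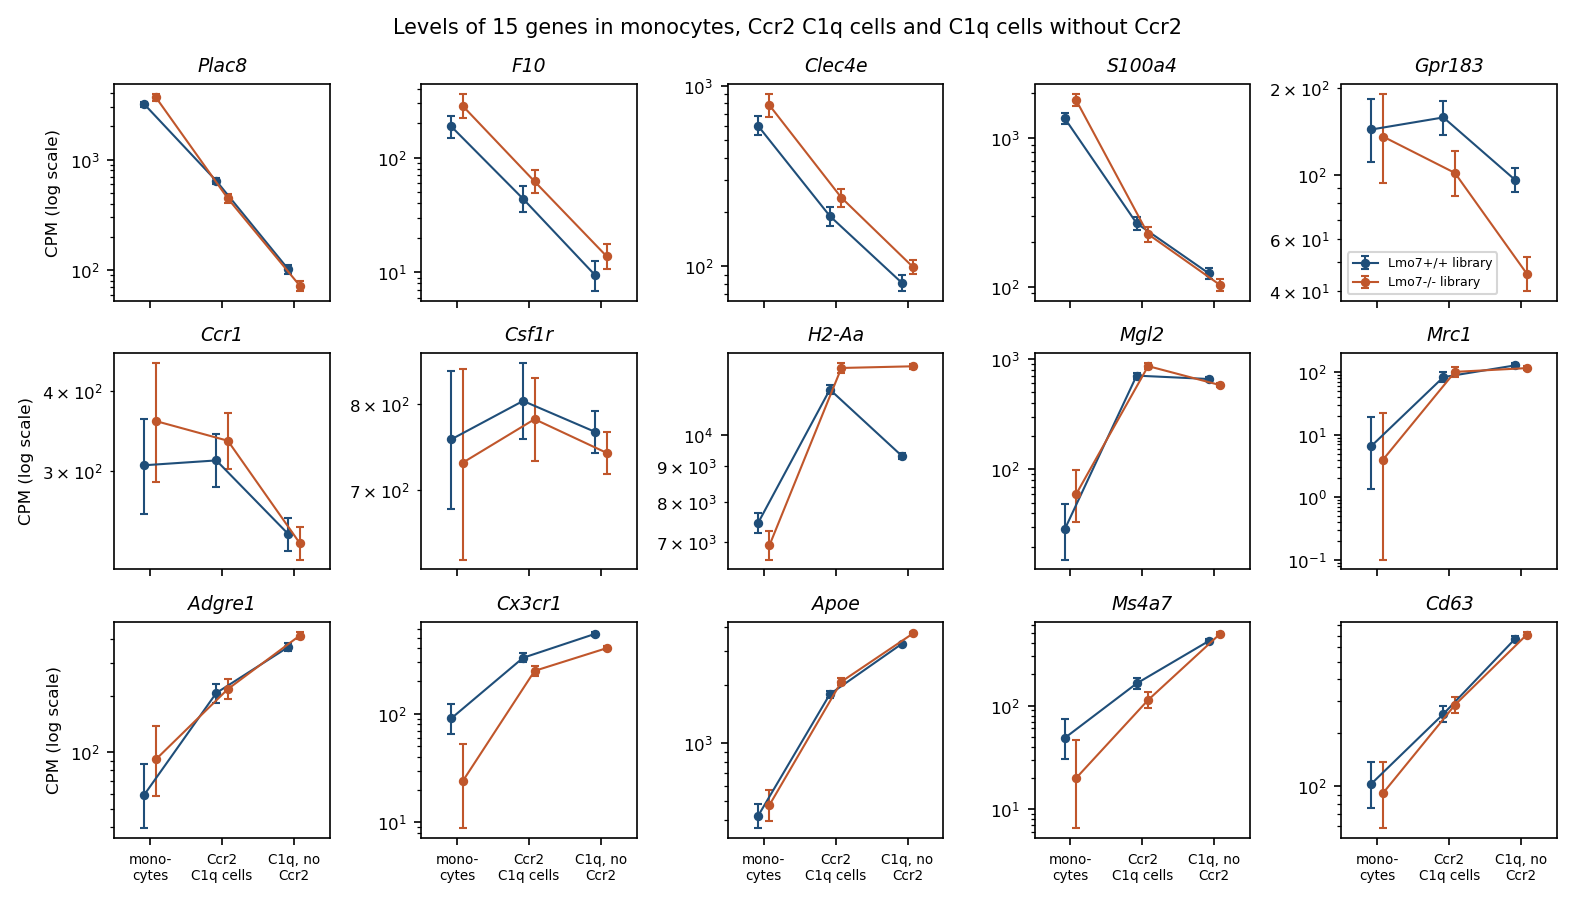
Level in CPM (log axis, different range in each panel) of 15 genes in Ly6c2 Chil3 monocytes, Ccr2 C1q cells and C1q cells without Ccr2, 1 line per library, with exact Poisson 95% intervals for counting error. Plac8, F10, Clec4e and S100a4 step down from left to right and Adgre1, Cx3cr1, Apoe, Ms4a7 and Cd63 step up in both libraries, while Csf1r is level at 730 to 803 CPM and Mgl2 and Mrc1 are already near the level of C1q cells without Ccr2.

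Most genes apart between the 2 neighbours stood between them in Ccr2 C1q cells. Among genes with at least 1 count in every population, 208 were at least 2-fold higher in monocytes than in C1q cells without Ccr2 in both libraries, and 159 of them (76.4%) lay between the neighbours in both libraries in Ccr2 C1q cells. Of 174 genes lower in monocytes 143 (82.2%) did. On a log2 scale with C1q cells without Ccr2 at 0% and monocytes at 100%, the median gene higher in monocytes stood at 32.0% in each library and the median gene lower in monocytes at 30.5% and 24.7%. By these medians the summed RNA lay nearer to C1q cells without Ccr2. The Ccr2 C1q cells shared every gate but that on Ccr2 with this neighbour, so the rule set part of this position. The genes were picked by the counts of the neighbours themselves, which by counting error alone favours a place between them. No background share was computed for the 76.4% and 82.2%, so they are a description. Of 6624 genes tested in both comparisons, 1 (Retnla) was called above both neighbours and 4 (Col1a1, Dclk1, Igkc and Oaf) below both. Col1a1, Dclk1 and Oaf stood at 447 to 695 CPM in tumor cells.

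MHC class II genes, which present antigen to CD4 T cells, were abundant in Ccr2 C1q cells. The 11 genes on the list, which also holds genes of costimulation, summed to 36772 and 39065 CPM. Their sum was 23104 and 21312 CPM in monocytes and 30728 and 40030 CPM in C1q cells without Ccr2. H2-Aa, the alpha chain of I-A, stood at 11623 and 12487 CPM, against 7448 and 6919 CPM in monocytes. None of the 11 was called against monocytes, and 1 against C1q cells without Ccr2, the costimulator Cd80 at 71.7 and 61.1 against 32.4 and 28.7 CPM. Over all genes tested 0.463% were called higher than in C1q cells without Ccr2. The chemokine receptor Ccr1 stood at 312 and 335 CPM, within 2-fold of both neighbours (307 and 359 CPM in monocytes, 240 and 232 CPM without Ccr2). The enzymes that make and remove the oxysterol ligand of Gpr183 were low, with Ch25h at 15.1 and 14.05 CPM, Cyp7b1 at 1.43 and 0.826 CPM and Hsd3b7 at 63.1 and 70.2 CPM, none of them called in any comparison. Il1b, the inflammatory cytokine, was abundant at 4018 and 4653 CPM, between 3202 and 3602 CPM without Ccr2 and 5178 and 6664 CPM in monocytes.

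Cells that passed all other gates and held at least 2 Ccr2 UMIs were then ordered by their C1q UMIs, a measure the rule cut at 5. From 0 to 1 C1q UMIs up to 30 or more, the 16 monocyte genes together went from 9365 to 2147 CPM in the Lmo7+/+ library and from 10618 to 2285 CPM in the library labelled Lmo7-/-, and the 22 macrophage genes went from 4142 to 8895 CPM and from 4069 to 8821 CPM. Plac8 went from 2605 to 361 CPM and from 2538 to 279 CPM, Apoe from 465 to 2179 CPM and from 614 to 2400 CPM. The 11 genes on the MHC class II list were already at 34585 and 32982 CPM with 2 to 4 C1q UMIs, just outside the gate. They stood at 36880 and 33982 CPM with 5 to 9, just inside it. Few cells lay near the cut, 24 in each library with 2 to 4 C1q UMIs and 30 and 26 with 5 to 9, against 163 and 117 with 0 to 1 and 150 and 145 with 30 or more. No gate on Ly6c2 or Chil3 was used in this order. Of the monocyte gate, 73 and 51 cells held at least 2 Ccr2 UMIs, so most cells with 0 to 1 C1q UMIs were outside that gate. What those cells were was not tested. The steps were not all in order. The monocyte genes stood at 5470 CPM with 2 to 4 and 6867 CPM with 5 to 9 C1q UMIs in the Lmo7+/+ library, and from 0 to 1 to 2 to 4 C1q UMIs the macrophage genes went down to 3907 and 3258 CPM and Apoe to 328 and 292 CPM. Depth moved along the same order, from a median of 2713 to 5897.5 UMIs and from 2261 to 5533 UMIs, and its part was not tested. Ordered by Ccr2 UMIs from 0 to 5 or more among C1q cells, the monocyte genes went from 1334 to 4239 CPM and from 1364 to 3332 CPM, with 3545 CPM at 3 to 4 UMIs in the latter library.

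**Figure D2:**
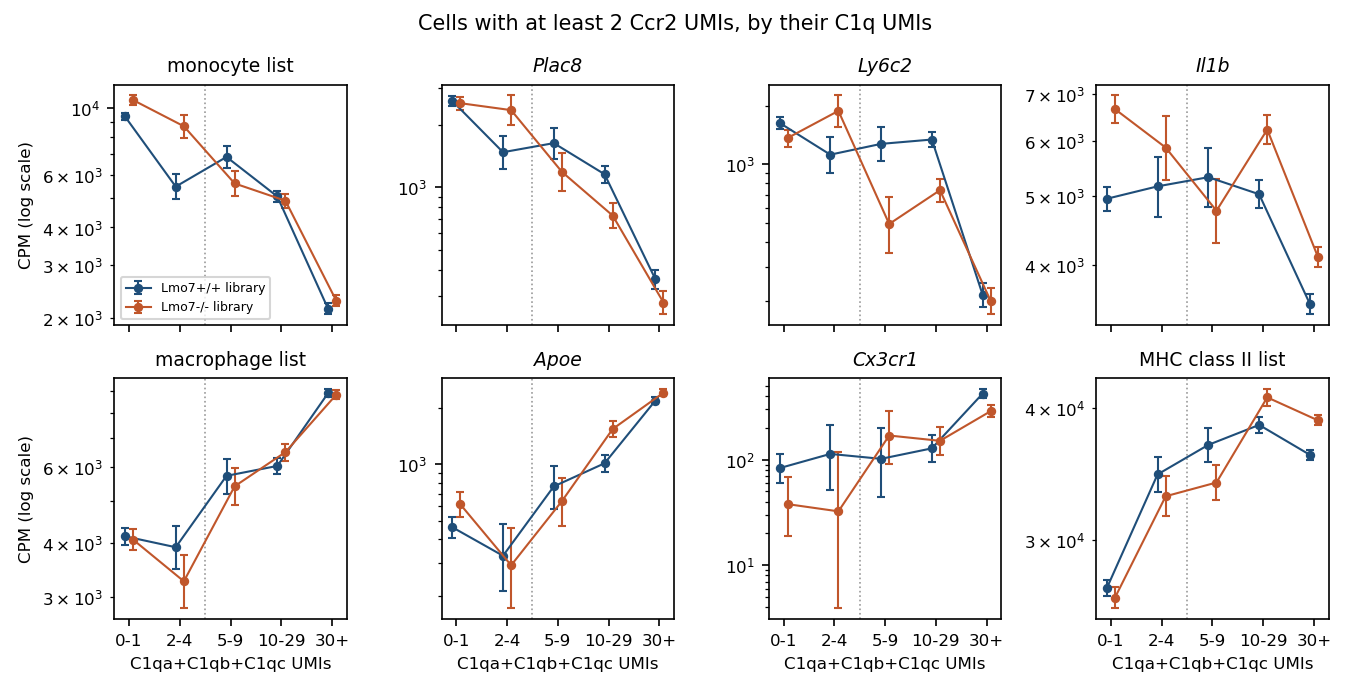
Levels in CPM (log axis, different range in each panel) of 3 gene lists and 5 genes in cells with at least 2 Ccr2 UMIs that passed all other gates, grouped by their UMIs of C1qa, C1qb and C1qc, with exact Poisson 95% intervals. The dotted line is the gate of 5 C1q UMIs. The monocyte list goes from 9365 and 10618 CPM to 2147 and 2285 CPM and the macrophage list from 4142 and 4069 CPM to 8895 and 8821 CPM.

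Single cells were compared after each was thinned to 2000 UMIs, which left out 21 and 17 of the Ccr2 C1q cells as too shallow. The 14 monocyte genes other than Ly6c2 and Chil3 gave a median of 4 and 5 UMIs per cell among Ccr2 C1q cells, 2 in each library without Ccr2 and 15 and 18.5 among monocytes. The macrophage genes gave 14 in each library, against 22 and 23 without Ccr2 and 7 in each among monocytes. The cells were spread rather than alike. Of the Ccr2 C1q cells, 18.8% and 16.3% held at least as many monocyte UMIs as the lower quartile of monocytes, and 29.4% and 27.6% no more than the median cell without Ccr2. Plac8 RNA was found in 47.1% and 37.2% of thinned Ccr2 C1q cells (58.0% and 50.0% before thinning), 8.41% and 8.24% without Ccr2, 94.0% and 91.4% of monocytes and 2.61% and 2.43% of tumor cells. Whether the tumor cells make Plac8 themselves was not tested. Across cells the monocyte and the macrophage UMIs had a Spearman rho of -0.23 (255 cells) and -0.16 (239 cells), a description over cells that share 1 library each. In C1q cells without Ccr2 rho was -0.052 (928 cells) and -0.16 (1031 cells).

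**Figure D3:**
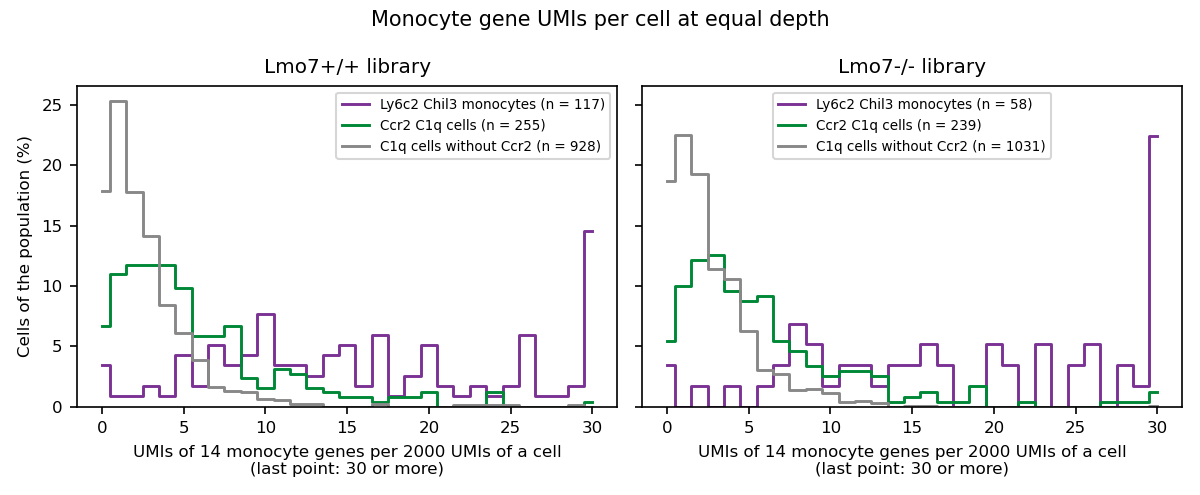
Share of cells (%) by their number of UMIs from 14 monocyte genes after each cell was thinned to 2000 UMIs, for 3 populations in each library, with cells at 30 or more in the last point. Ccr2 C1q cells (green, medians 4 and 5, quartiles 2 and 8) lie to the right of C1q cells without Ccr2 (grey, median 2) and mostly to the left of monocytes (purple, medians 15 and 18.5).

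Between the libraries, the Ccr2 C1q cells labelled Lmo7-/- held more Arg1, Cxcl9 and Il1a RNA and less Pgf RNA. Of 8100 genes with at least 20 counts, 99 were at least 2-fold higher in the library labelled Lmo7-/- with an interval without 0 (1.22%) and 93 lower (1.15%). No interval was widened for the number of genes, and with at least 50 counts 45 genes were higher and 18 lower. Which genes were called depended on the cells used. With every cell thinned to 3000 UMIs 28 of the 99 and 7 of the 93 were called again, and with a gate of 3 Ccr2 UMIs 44 and 27. The median log2 ratio over all 8100 was -0.05.

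Arg1, which encodes the enzyme arginase that uses up arginine, stood at 17.2 CPM in the Lmo7+/+ library and 200 CPM in the library labelled Lmo7-/- (24 and 242 counts, log2 ratio 3.54, 95% interval 2.93 to 4.21). It was found in 10 of 276 and 48 of 256 cells, which is 3.62% and 18.8%, or 3.14% and 13.4% after thinning to 2000 UMIs, and in 0.0512% and 0.208% of thinned tumor cells. The RNA was uneven, since 5 cells held 75% and 57% of the counts, but the log2 ratio was 3.63 with the highest cell of each library left out. Arg1 lies on chromosome 10 (24915221 to 24927484, minus strand). In C1q cells without Ccr2 the log2 ratio was 0.94 (0.70 to 1.19), from 44.3 to 85.2 CPM, and monocytes stood at 4.41 and 160 CPM. The difference between the 2 ratios was not tested.

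Of 18 inflammatory genes tested 4 were called higher and none lower, against 1.22% higher and 1.15% lower over all genes tested. Their median log2 ratio was 0.42. Cxcl9, a chemokine that draws T cells and is induced by interferon gamma, stood at 384 and 1263 CPM (log2 ratio 1.72, 1.57 to 1.86), against 571 and 1280 CPM without Ccr2 (1.17), 251 and 666 CPM in monocytes and 69.8 and 192 CPM in tumor cells, so it was higher in all 4 populations. Il1a, an inflammatory cytokine, stood at 31.6 and 112 CPM (1.82, 1.32 to 2.35) in 25 and 52 cells, while without Ccr2 it stood at 127 and 126 CPM (-0.01, -0.18 to 0.15). The neutrophil chemokine Cxcl1 stood at 77.5 and 185 CPM (1.26) and Nos2, which makes nitric oxide, at 11.5 and 60.3 CPM (2.39), with 0.67 and 2.09 without Ccr2. Il1b differed by less (log2 ratio 0.21, 0.16 to 0.27), as did Ptgs2 (0.43) and Il1rn (0.41), and Nlrp3 stood at 937 and 897 CPM (-0.06, -0.18 to 0.05).

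Of 18 genes induced by interferon gamma 2 were called higher, the GTPases Iigp1 (43.0 and 118 CPM, log2 ratio 1.46, 1.01 to 1.92) and Irgm2 (13.6 and 34.7 CPM, 1.35). None were called lower, and the median was 0.67. Over all genes tested 1.22% were called higher and 1.15% lower. Irf1 (0.92), Gbp2 (0.91) and Cd274 (0.88, the checkpoint ligand PD-L1) stood higher by less than 2-fold. The 18 genes summed to 2429 and 3359 CPM in Ccr2 C1q cells, 2601 and 3746 CPM without Ccr2, 3514 and 5352 CPM in monocytes and 2227 and 3788 CPM in tumor cells. The sum was thus higher in the library labelled Lmo7-/- in all 4 populations. Of 15 genes of type I interferon tested none were called (median -0.16), and a gate had left out cells high in that response. Gbp2b, of the same family as Gbp2 and chosen by its ratio over monocytes, stood at 46.6 and 105 CPM (1.17).

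Other genes among the 10 highest were Wdfy1 (17.9 and 66.1 CPM, log2 ratio 1.88), the interferon-induced membrane protein Ifitm1 (412 and 1202 CPM, 1.55), the hexokinase Hk3 (41.6 and 119 CPM, 1.52), the eosinophil chemokine Ccl24 (30.1 and 89.2 CPM, 1.57) and the protein C receptor Procr (25.8 and 66.9 CPM, 1.37). Procr was under 2-fold with thinned cells (0.73) and with at least 3 Ccr2 UMIs (0.95), and Hk3 with at least 1 Ccr2 UMI (0.92). Ratios in C1q cells without Ccr2 had the same sign for all 5 genes, from 0.76 for Procr to 1.15 for Ifitm1. On the phagocytosis list 1 of 19 genes was called higher, the scavenger receptor Cd36 (48.8 and 126 CPM, 1.36), and none lower, with a median of 0.28. Over all genes tested 1.22% were called higher and 1.15% lower, so 1 call is no result about the list. On the migration list 2 of 13 were called higher, the integrin Itgb7 (26.5 and 61.1 CPM) and the formyl peptide receptor Fpr1 (10.0 and 23.96 CPM). Lrp1, a receptor of phagocytosis, stood at 132 and 146 CPM (0.15, -0.16 to 0.45).

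Pgf (chromosome 12, 85166635 to 85177790, minus strand), which encodes placental growth factor, was the gene farthest lower, at 180 CPM in the Lmo7+/+ library and 52.9 CPM in the library labelled Lmo7-/- (251 and 64 counts in 61 and 33 cells, log2 ratio -1.77, -2.19 to -1.37). In C1q cells without Ccr2 it stood at 78.8 and 58.1 CPM (-0.44, -0.67 to -0.21). In the Lmo7+/+ library Pgf was thus higher in Ccr2 C1q cells than in either neighbour (22.1 CPM in monocytes). Sirpb1a, an activating receptor of the SIRP family, stood at 71.7 and 31.4 CPM (-1.19), and the nucleolar protein Nolc1 at 132 and 60.3 CPM (-1.13, and -0.80 without Ccr2). Nolc1 was under 2-fold with at least 1 Ccr2 UMI (-0.74) and by the mean of each cell's CPM (-0.94), and Sirpb1a with at least 1 Ccr2 UMI (-0.69) and with thinned cells (-0.75). Further genes at that end, Ddx42, Htra3, Grasp, Fasn, Ppid and Dcakd, had log2 ratios of -0.94 to -0.85 and were not called.

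In this comparison 0 of 14 monocyte genes and 0 of 21 macrophage genes were called. Over all genes tested 1.22% were called higher and 1.15% lower, so no call on lists this short is near that share. The same holds for the lists below that had no gene called. Ly6c2 was lower in the library labelled Lmo7-/- at 571 and 348 CPM (log2 ratio -0.71, -0.89 to -0.54), as it was without Ccr2 (-0.69), and Plac8 had a ratio of -0.53 (-0.68 to -0.37). Ly6c2 stood at 3845 and 3509 CPM in monocytes, but their gate on Ly6c2 and Chil3 bears on that level, so it is no finding. Fn1 (0.63, 0.37 to 0.90) and F13a1 (0.61, 0.09 to 1.14) stood the other way, so monocyte genes had ratios of both signs. None of the 11 genes on the list of MHC class II and costimulation was called. H2-Aa stood at 0.10 (0.07 to 0.14) in Ccr2 C1q cells and 0.43 (0.41 to 0.45) without Ccr2. Of 12 genes of dissociation stress none were called, and the heat shock genes Hspa1a (133 and 228 CPM) and Hspa1b (110 and 206 CPM) came from 35 and 21 and from 32 and 20 cells. Genes of T, NK and B cells summed to 4.30 and 57.0 CPM. Of these 0.717 and 33.1 CPM were the granzyme Gzma, the only one tested and called higher, whose 40 counts in the library labelled Lmo7-/- lay in 2 cells. Of the lists on lysosome and lipid genes (0 of 13), transcription factors (0 of 18), genes the study calls pro-tumor (0 of 4) and Ccr2 ligands (0 of 3), none had a gene called. On the hypoxia list 1 of 10 was called (Arg1), on that of nonclassical monocytes 1 of 5 (Cd36, also on the phagocytosis list) and on the dendritic list 1 of 7 (Ccr7). With 1 call each, these are no result about the lists. Of 2 oxysterol, 2 neutrophil, 1 tumor and 3 stromal genes none were called.

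**Figure D4:**
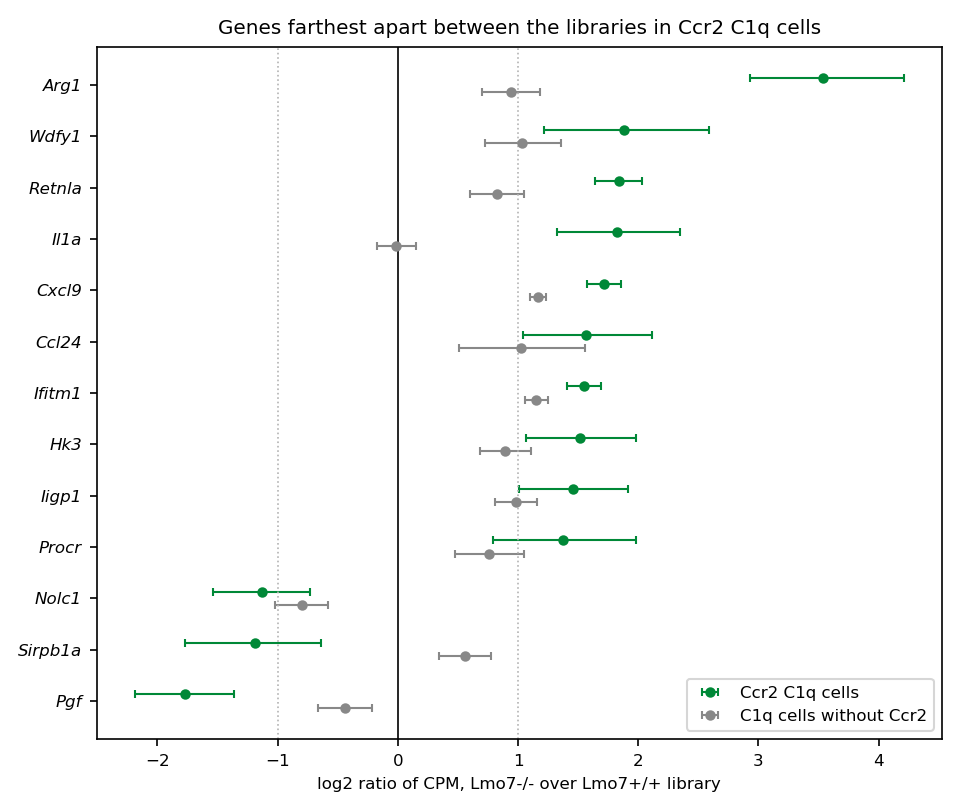
Log2 ratio of CPM, library labelled Lmo7-/- over Lmo7+/+, for those of the 10 genes at the top and the 10 at the bottom by ratio that were at least 2-fold apart in Ccr2 C1q cells, among genes with at least 100 counts (green), and for the same genes in C1q cells without Ccr2 (grey), with exact 95% intervals for counting error and dotted lines at 2-fold. Arg1 stands at 3.54 against 0.94, Il1a at 1.82 against -0.01, and Sirpb1a at -1.19 against 0.56.

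Retnla (chromosome 16, 48842551 to 48844461, plus strand), a secreted protein of alternatively activated macrophages, was the gene that stood above both neighbours, and it came from a handful of cells. It had 288 and 893 counts (207 and 738 CPM) in 5 of 276 and 10 of 256 Ccr2 C1q cells, with 170 and 365 counts in the highest cell. C1q cells without Ccr2 stood at 54.4 and 96.4 CPM (log2 ratio 1.92 and 2.94), and monocytes held no count, so that the log2 ratio over them was at least 4.96 and 5.95 against the level of 3 counts. Between the libraries the log2 ratio was 1.84 (1.64 to 2.03), an interval for counting error that says nothing of 5 and 10 cells. Of the 5 and 10 cells with Retnla, 2 and 4 also held Lyz1, against 7 of 271 and 2 of 246 of the others, and 2 and 7 held Ear2, against 6 in each library. Lyz1 (in 9 and 6 cells) and Ear2 (in 8 and 13 cells) were called higher than without Ccr2 as well. The cells with Retnla held Ly6c2 in 0 of 5 and 1 of 10, against 116 of 271 and 98 of 246 of the others.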

How the data were processed

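Raw UMI counts per gene and cell were deposited by the authors for 2 libraries of droplets already called as cells (16208 and 15163 barcodes of 24 bases). The submitters' processing notes name Cell Ranger 2.1.1 and mm10, while the file headers name software version 3.0.0. Seurat in the study's methods was applied after these counts. No other normalization was made to the files. Gene positions come from GENCODE M21 on GRCm38, which is the same assembly.

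The kept cells held 94751498 and 76262235 UMIs. All cells of a population were added up, per gene, and given as CPM, with exact Poisson intervals. Shares carry Clopper-Pearson intervals and log2 ratios the exact binomial interval of the split of counts. Genes with at least 20 counts in the cells compared were tested, genes of the gates were left out, and a ratio to a population at 0 counts was taken against 3 counts, as a bound. No p-value was computed. The cells and the 21 gene lists were chosen with earlier results of these data known. The text names genes of the gates and lists and, for each comparison, the 10 genes at each end of the log2 ratios that had 100 counts or more, leaving aside mitochondrial, ribosomal, Gm and Rik genes. Some genes that the rule names are not reported here. Within libraries the rank used the ratio nearer to 0. Dclk1 and Oaf were named after their values were seen. Of the list of type I interferon genes 15 of 16 were matched. Scrublet was run per library and doublets were kept in the main values.

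Only the comparison between the libraries was run on simulated counts. These held the counting error that the intervals assume and no spread between cells, so the run cannot check the intervals against such spread. Library sizes by TMM came from edgeR 4.0.16 under R 4.3.3, doublet scores from Scrublet in scanpy 1.11.5, figures from matplotlib 3.10.9, and all else from scipy 1.17.1, pandas 2.3.3 and numpy 2.4.6 under Python 3.11.15. Alternatives were lenient (200 genes, 500 UMIs, 25% mitochondrial) and strict (1000, 2000 and 10%) filters, other gates on Ccr2 and C1q, doublets left out, thinning, TMM, totals without the 10 most abundant genes, other minimum counts, the mean of each cell's CPM and, chosen after seeing the data, shared barcodes left out, a monocyte gate of 2 UMIs, monocytes without plasma or dendritic cell genes and the highest cell per gene left out.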

Additional observations from a re-analysis of the deposited data

Results flagged for a closer look

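For 2 genes the ratio between the libraries had opposite signs in Ccr2 C1q cells and in C1q cells without Ccr2, with each interval on its own side of 0. The difference between the ratios was not tested, since each genotype has 1 library. Ccr7, a chemokine receptor of migrating dendritic cells, had a log2 ratio of 1.30 (0.37 to 2.29) in Ccr2 C1q cells, from 15 counts in 11 cells to 32 counts in 9 cells of which 11 lay in 1 cell, and of -1.10 (-1.69 to -0.53) without Ccr2. Sirpb1a had a log2 ratio of -1.19 (-1.77 to -0.64) in Ccr2 C1q cells, from 100 counts in 77 cells to 38 counts in 37 cells, and of 0.56 (0.34 to 0.78) without Ccr2. Its ratio in Ccr2 C1q cells was -0.69 with a gate of 1 Ccr2 UMI and -0.75 with thinned cells.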

How the results depend on the processing

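No paired analysis was possible because each genotype has 1 library. Counting error is the only error that could be measured, and it limits genes under about 50 counts most. The difference in the share of Ccr2 cells was negative under all 10 alternatives, from -3.76 to -0.523 points, and its interval took in 0 with the strict filter, with gates of 3 Ccr2 or 3 C1q UMIs, with cells of 2000 to 10000 UMIs and with thinned cells.

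Between the libraries, 45 genes were higher and 18 lower with at least 50 counts, and 146 lower by the mean of each cell's CPM. Against C1q cells without Ccr2 the genes lower were 120 with the strict filter, 306 with a gate of 3 C1q UMIs, 86 with a gate of 10 and 86 with thinned cells. Against monocytes the genes higher were 59 with monocytes of at least 2 Ccr2 UMIs and 25 with thinned cells, and the genes lower were 32 with thinned cells, where 55 and 17 monocytes were left, and 67 with at least 50 counts. All other counts stayed within 1.5 times those given, but the genes behind them changed. Between the libraries 95 genes were higher and 89 lower with thinned cells, of which 28 and 7 were among those called above, and with a gate of 3 Ccr2 UMIs 99 and 96, of which 44 and 27 were. The thinned comparison tested fewer Ccr2 C1q cells, taken by gates on the thinned counts, and for the other alternatives the cause was not tested.

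Of the 20 genes named per comparison, 302 of 320 values between the libraries kept their direction and side of 2-fold, 7 lost the call (of Hk3, Procr, Sirpb1a and Nolc1) and 11 gained one. Against C1q cells without Ccr2 it was 309 of 317 with 7 lost, and the ratio of Igfbp7 reversed to 0.57 with a gate of 3 C1q UMIs, from fewer than 5 counts in the main setting. Against monocytes it was 340 of 343 with 3 lost. TMM moved the median of all genes by 0.11 on the log2 scale in the comparison with monocytes of the library labelled Lmo7-/- and by at most 0.06 elsewhere.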
